A study of Mus musculus with 6 samples.

Results

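The dehydrogenases of lactate, pyruvate and malate were examined in the soleus, a slow postural calf muscle, through the 6 probes annotated as Ldha, Ldhb, Ldhc, Pdha1, Pdha2 and Mdh2, out of 202 named genes on 223 probes. Each of the 6 genes had 1 probe, and all 6 gave a value on every array. The probes were found by gene symbol, and the set was chosen with earlier results of these data known. The samples form a single group of 6 arrays, 1 biological replicate each, from mice labelled as tenascin-C deficient, of strain 129/SV, sampled 1 day into reloading, the return of weight to a muscle that had been spared it. Tenascin-C, encoded by Tnc, is an extracellular matrix glycoprotein, and all 6 arrays carry that label. The sources used here give neither the age or sex of the mice nor the nature of the Tnc allele. Arrays are numbered 1 to 6 in the order of the sample records. No wild-type, unloaded or sham group was analysed here, so the question that can be put to the data is which isoforms gave a signal in this muscle, and how far that signal differed between animals. In RNA from whole muscle, fewer cells of a type and less RNA per cell cannot be told apart.

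Lactate dehydrogenase interconverts pyruvate and lactate. It is a tetramer whose subunits come from Ldha, the form of fast glycolytic muscle and liver, and Ldhb, the form of heart and oxidative muscle; Ldhc encodes a subunit of spermatocytes and sperm. The pyruvate dehydrogenase complex feeds pyruvate into the Krebs cycle as acetyl-CoA. Its E1 alpha subunit is encoded by the X-linked gene Pdha1 in somatic tissues and by the intronless autosomal copy Pdha2 in germ cells of the testis, where the X chromosome is silenced during meiosis. Mdh2 encodes the mitochondrial malate dehydrogenase, which closes the Krebs cycle by making oxaloacetate and takes part in the malate-aspartate shuttle. Ldhc and Pdha2 thus serve here as isoforms of another tissue, set beside their somatic relatives on the same membrane.

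The upstream sequences of both isoform pairs are shown because somatic and testis forms of the same enzyme are under separate promoters. In RefSeq (GRCm38.p6), Ldha and Ldhc are neighbouring protein-coding genes on chromosome 7, while Ldhb lies on chromosome 6, Pdha1 on X, Pdha2 on 3 and Mdh2 on 5. All 6 genes had at least 1 entry in the promoter table, and the first entry was taken; Ldha and Ldhc had a further entry each, described below. The 250 bases before the annotated start are given 5′ to 3′ on the gene's own strand, with every CG dinucleotide in capitals.
Ldhb, chr6:142507958-142508207, minus strand: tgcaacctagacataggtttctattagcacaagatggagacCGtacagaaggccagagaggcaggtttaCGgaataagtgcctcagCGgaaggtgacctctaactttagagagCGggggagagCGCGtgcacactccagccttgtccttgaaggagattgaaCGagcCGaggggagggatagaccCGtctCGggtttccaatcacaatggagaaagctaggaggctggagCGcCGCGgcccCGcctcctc
Ldhc, chr7:46861013-46861262, plus strand: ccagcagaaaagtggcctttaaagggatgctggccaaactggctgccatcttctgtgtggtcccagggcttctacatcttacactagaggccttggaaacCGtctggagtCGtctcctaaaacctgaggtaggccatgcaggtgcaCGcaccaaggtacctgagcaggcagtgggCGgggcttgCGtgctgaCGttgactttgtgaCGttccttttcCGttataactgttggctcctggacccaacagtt
Pdha1, chrX:160138431-160138680, minus strand: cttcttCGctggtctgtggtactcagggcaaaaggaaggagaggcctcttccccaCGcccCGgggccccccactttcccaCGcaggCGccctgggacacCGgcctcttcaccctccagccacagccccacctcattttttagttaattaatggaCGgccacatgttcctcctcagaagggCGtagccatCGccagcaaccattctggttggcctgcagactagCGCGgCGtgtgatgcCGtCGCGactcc
Pdha2, chr3:141212356-141212605, minus strand: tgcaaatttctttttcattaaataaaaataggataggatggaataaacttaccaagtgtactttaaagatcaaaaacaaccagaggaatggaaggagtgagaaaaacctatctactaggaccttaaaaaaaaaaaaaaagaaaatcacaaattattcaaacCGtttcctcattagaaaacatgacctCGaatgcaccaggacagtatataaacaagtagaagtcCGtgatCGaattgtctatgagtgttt
CG dinucleotides numbered 15 in the window of Pdha1 and 4 in that of Pdha2, at a GC content of 61.6% and 31.6%. Of 32851 such windows in the table, several of them from the same gene, 27.3% held at least as many as Pdha1 and 44.4% held at most as many as Pdha2. The window of Ldhb held 14 and that of Ldhc 8, against a median of 6 over all windows; Ldha held 25 and Mdh2 23. Motifs were searched on both strands, and matches that overlap were counted as 1 stretch. The letters TGACG, the core of a cyclic AMP response element, were found in 2 separate stretches in the window of Ldhc and 1 each in those of Ldha and Mdh2, and in 17.8% of all windows. The GC box letters GGGCGG were found in 2 places in the window of Ldha, 1 each in those of Ldhc and Mdh2, and in 32.7% of all windows. Pdha2 and Ldhc held 1 stretch each with TATAA, a pattern present in 22.8% of windows, and the other 4 windows held none. The further entries held 9 CG, 1 stretch with TGACG and 0 with GGGCGG for Ldha, and 3 CG and 0 of each motif for Ldhc. These matches describe the letters of the windows only; no binding was measured.

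The arrays did not offer the same range for signals. The deposited values of an array, without the spots 1M (unnamed) and 1O (28S ribosomal RNA), sum to about 1, and their lowest value ran from 0.0006 on array 6 to 0.003 on arrays 1 and 2. On arrays 1 and 2 the spots 1M and 1O together reached 41.3 and 40.5, and 19 and 20 of 221 probes reached 2 times the lowest intensity. On arrays 3, 4, 5 and 6 the same spots gave 0.876, 3.21, 1.25 and 1.15, and 37, 64, 77 and 104 probes reached 2 times the lowest. Arrays 1 and 2 thus stand apart, and results are given with and without them. The probe for Tnc itself read between 1.11 and 2.78 times the lowest on arrays 3 to 6 and 4.07 and 4.50 times on arrays 1 and 2, where only 5 and 6 of 221 probes were brighter. On those arrays its signal goes against the label, but the sources used here do not say whether the deletion removes its target, so it checks nothing. If the number of a spot is its row and the letter its column, an assumption, Tnc at 4L lies near 1M. Spot 1M read 36.6 and 35.7 on arrays 1 and 2, and between 0.57 and 3.05 on arrays 3 to 6. Its part in the signal of Tnc was not tested. As a check of the tissue, all 3 probes for slow fibre genes (Myh7, Mb, Car3) and all 3 for fast myosins (Myh1, Myh2, Myh4) were at 2 times the lowest or more in all 4 of arrays 3 to 6. None of 10 testis germ cell markers, 4 nerve markers or 2 haemoglobin genes that were looked for was among the probes used here. Of the markers of other cell types with a probe, Fabp4 of adipocytes reached that level in the same 4 arrays, and 0 of 4 endothelial and 0 of 2 leukocyte genes did so in all 4. On arrays 5 and 6, however, the endothelial genes Cdh5 (3.75 and 5.33 times) and Pecam1 (4.58 and 4.33 times) did pass, and Kdr gave 2 times on array 5.

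Lactate dehydrogenase subunit B gave the strongest signal of the group. The intensity of Ldhb was 0.0036 and 0.0034 on arrays 1 and 2, and 0.0084, 0.0098, 0.0105 and 0.0132 on arrays 3, 4, 5 and 6. Relative to the lowest intensity of the same array these were 1.20 and 1.13 times on arrays 1 and 2, and 4.67, 10.9, 8.75 and 22.0 times on arrays 3 to 6. The probe stood well clear of the lowest value on 4 arrays and close to it on the other two, with no overlap between these sets. On arrays 3 to 6 between 14 and 18 of the 221 probes were brighter than Ldhb, whereas 105 and 151 were brighter on arrays 1 and 2. On arrays 3 to 6 Ldhb was the brightest of the 6 dehydrogenase probes in 4 of 4 arrays.

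**Figure D1:**
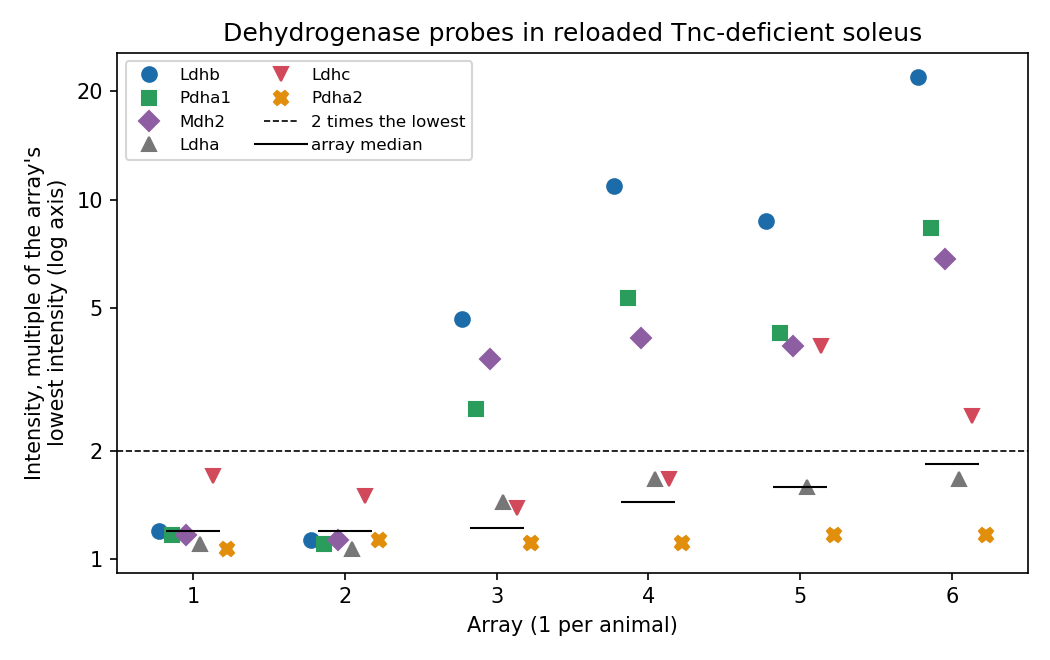
Intensity of the 6 dehydrogenase probes on each array (1 animal each), as a multiple of the lowest intensity of that array, on a log axis; horizontal bars mark the median of 221 probes and the dashed line 2 times the lowest. Ldhb, Pdha1 and Mdh2 lie above the dashed line on arrays 3 to 6 and below it on arrays 1 and 2, while Ldha and Pdha2 lie below it on all 6.

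Lactate dehydrogenase subunit A, the form of glycolytic fibres, stayed close to the background of the membrane. Ldha gave 0.0033, 0.0032, 0.0026, 0.0015, 0.0019 and 0.001 on arrays 1 to 6, which is 1.10, 1.07, 1.44, 1.67, 1.58 and 1.67 times the lowest intensity. No array put it at 2 times the lowest, and between 66 and 196 probes were brighter than it. Its mean over arrays 3 to 6 was 1.59 ± 0.105 times the lowest (SD, n = 4). A probe this near the lowest value gives little information on its transcript, since 1 step of the last deposited decimal place was 3.33% of the lowest intensity on arrays 1 and 2 and 16.7% on array 6.

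The testis subunit Ldhc did not stay at the lowest value. It gave 0.0051, 0.0045, 0.0025, 0.0015, 0.0047 and 0.0015 on arrays 1 to 6, or 1.70, 1.5, 1.39, 1.67, 3.92 and 2.5 times the lowest intensity. Arrays 5 and 6 passed 2 times the lowest and the other arrays did not. On arrays 5 and 6, 34.8% and 47.1% of all probes passed, and 34 and 68 probes were brighter than Ldhc. On arrays 1 and 2, where the other 5 dehydrogenase probes lay between 0.0032 and 0.0036, Ldhc was the brightest of the 6, though under 2 times the lowest. The endothelial genes Cdh5 and Pecam1 also passed on arrays 5 and 6 and not on the other arrays; their part in the result was not tested. On array 5 it gave the same intensity as Mdh2, 0.0047. Read as a grid, with the number of a spot as row and its letter as column, an assumption, Ldhc at 8N lies 7.07 steps from 1M and next to Cox4i1, a cytochrome c oxidase subunit that was its brightest neighbour on arrays 3 to 6 at 7.61, 15.9, 13.3 and 25.7 times the lowest. On arrays 1 and 2 its brightest neighbour was Igfbp1, at 2.80 and 2.57 times the lowest. The median of its neighbours was 1.92 and 1.58 times there, against 1.70 and 1.5 for Ldhc itself. The other 5 probes lie side by side at 20D to 20H, between 19.6 and 21.0 steps from 1M. Around them the median neighbour lay between 1.08 and 1.13 times the lowest on arrays 1 and 2. The part of these neighbours in the signal of Ldhc was not tested. On arrays 3 to 6 the intensity of Cox4i1 was 0.0137, 0.0143, 0.016 and 0.0154, and that of Ldhc 0.0025, 0.0015, 0.0047 and 0.0015. Both were highest on array 5 in intensity. In multiples of the lowest, Cox4i1 was highest on array 6, at 25.7, and Ldhc on array 5, at 3.92.

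The somatic E1 alpha subunit of pyruvate dehydrogenase gave nearly the same intensity on arrays 3 to 6. Pdha1 gave 0.0035 and 0.0033 on arrays 1 and 2, and 0.0047, 0.0048, 0.0051 and 0.005 on arrays 3, 4, 5 and 6. The mean over arrays 3 to 6 was 0.0049 ± 0.000183 (SD, n = 4), a coefficient of variation of 3.73%, against 19.2% for Ldhb and 26% for Mdh2 on the same arrays. These intensities are shares of the summed signal, background included, so a steady share is not a measure of a steady transcript level. As multiples of the lowest intensity, which differed between the arrays, the same values became 2.61, 5.33, 4.25 and 8.33, and they were 1.17 and 1.10 on arrays 1 and 2.

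Its testis counterpart Pdha2 was the dimmest of the 6 probes on 4 of 4 arrays among arrays 3 to 6. Pdha2 gave 0.0032, 0.0034, 0.002, 0.001, 0.0014 and 0.0007 on arrays 1 to 6, or 1.07, 1.13, 1.11, 1.11, 1.17 and 1.17 times the lowest intensity. That is between 1 and 4 steps of the last decimal above the lowest probe of the array. The spot lies directly beside Pdha1, which was 8.33 times the lowest on array 6. Cyct, the testis form of cytochrome c, was looked up after its values were seen as a further germ cell isoform on the array, and gave between 1.06 and 1.67 times the lowest over the 6 arrays.

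Mitochondrial malate dehydrogenase was measured at levels near those of Pdha1. Mdh2 gave 0.0035 and 0.0034 on arrays 1 and 2, and 0.0065, 0.0037, 0.0047 and 0.0041 on arrays 3, 4, 5 and 6. In multiples of the lowest intensity these were 1.17, 1.13, 3.61, 4.11, 3.92 and 6.83. Mdh2 was highest on array 3 in intensity but on array 6 in multiples of the lowest. Its signal lay below that of Pdha1 on 3 of the 4 arrays from 3 to 6 and above it on array 3.

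**Figure D2:**
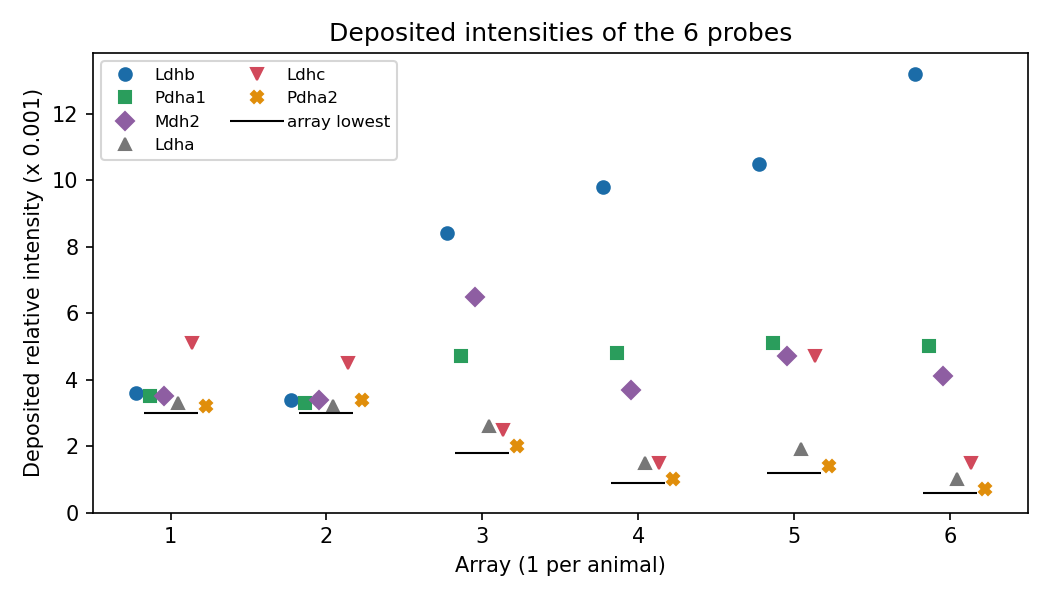
Deposited relative intensity of the 6 probes on each array (1 animal each, linear axis in units of 0.001), with bars at the lowest intensity of the array. Pdha1 sits between 0.0047 and 0.0051 on arrays 3 to 6 while the lowest intensity runs from 0.0006 to 0.0018, and Ldhc is the brightest of the 6 probes on arrays 1 and 2.

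A signal was counted as measured where it was at least 2 times the lowest in all 4 of arrays 3 to 6. By that rule 3 of the 6 members passed (Ldhb, Pdha1 and Mdh2), against 30 of 221 probes, or 13.6%. On all 6 arrays 0 of the 6 passed, against 5 of 221 probes, or 2.26%. With 3 times as the threshold Pdha1 no longer passed, because of array 3, and 2 members were left, against 21 of 221 probes, or 9.5%.

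The distance of each probe from the middle of its array was then tested over all 221 probes, as log2 intensity minus the array's median (limma, moderated test, two-sided, Benjamini-Hochberg over 221 probes). The median probe itself lay only 1.20 to 1.83 times above the lowest, so the comparison asks whether a probe stood out from a membrane on which most spots were faint. With all 6 arrays, 27 probes (12.2%) were brighter than the median and 15 (6.79%) dimmer. Of the members, 1 was brighter, Ldhb, by 1.80 ± 0.57 (SE, n = 6) on the log2 scale (limma adjusted p = 0.0312). Pdha2 was dimmer, at −0.31 ± 0.11 (SE, n = 6; limma adjusted p = 0.044). Pdha1 at 1.07 and Mdh2 at 1.03 missed the threshold with the same limma adjusted p = 0.0507, and so did Ldhc at 0.49 (limma adjusted p = 0.0524). These 3 passed with the same 6 arrays in some other settings: after cyclic loess (limma adjusted p = 4.64e-05, 0.000132 and 0.0106, in that order), with the lowest intensity subtracted (0.0425, 0.0389 and 0.0346) and with spots 1M and 1O kept (0.0453, 0.0453 and 0.0484). They missed it in others: after quantile normalization (limma adjusted p = 0.0761, 0.0717 and 0.0549) and with a pseudocount (0.0505, 0.0505 and 0.058). The same held with a filter on dim probes (limma adjusted p = 0.0586, 0.0597 and 0.0597) and with a prior without trend or robust fit (0.0696, 0.0679 and 0.069). Ldha sat at the median, at 0.00 ± 0.09 (SE, n = 6; limma adjusted p = 0.984). The calls of Ldhb and Pdha2 were lost on leaving out array 3, 4, 5 or 6, with limma adjusted p of 0.0633, 0.114, 0.0922 and 0.0668 for Ldhb and 0.0649, 0.114, 0.111 and 0.0544 for Pdha2. With all 6 arrays and a prior without trend or robust fit both were lost too, at limma adjusted p of 0.0679 and 0.068. Quantile normalization gave 26 brighter and 36 dimmer probes in place of 27 and 15, cyclic loess 71 and 73, and subtraction of the lowest intensity 48 and 37.

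Without arrays 1 and 2 the same test called 4 members brighter than the median and 1 dimmer, where 32.1% and 29% of all probes were called. Ldhb lay 2.72 above the median, Pdha1 1.65, Mdh2 1.57 and Ldhc 0.54 on the log2 scale, and Pdha2 lay at −0.40 (limma adjusted p = 2.83e-08, 0.000118, 0.000166, 0.0256 and 0.0112, in that order, n = 4). Ldha at 0.08 was not called (limma adjusted p = 0.598). With 4 arrays these values lean on the spread that limma estimates from probes of like signal. The SDs of the members' own centred log2 values over these arrays were 0.70 for Ldhb, 0.53 for Ldhc, 0.48 for Pdha1, 0.25 for Mdh2, 0.21 for Pdha2 and 0.18 for Ldha, beside a median of 0.25 over 221 probes.

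Isoforms were next set against each other within an array, as the difference in log2 intensity of the 2 probes of a pair, for 4 pairs. A difference between probes also holds probe length, labelling and hybridisation, so it compares signals and not numbers of transcripts, and background in both probes pulls it toward 0. Each was tested with a two-sided exact permutation test that flips the sign of each array, for which 0.0312 is the smallest p with 6 arrays and 0.125 with 4.

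Pdha1 exceeded its testis form Pdha2 on 5 of 6 arrays. The signal of Pdha1 was 1.09, 0.971, 2.35, 4.80, 3.64 and 7.14 times that of Pdha2 on arrays 1 to 6. The 2 probes gave nearly the same signal on arrays 1 and 2 and were apart on the other arrays. The mean difference was 1.38 ± 1.16 on the log2 scale (SD, n = 6; exact permutation p = 0.0625, 0.125 adjusted over the 4 pairs), and 2.05 ± 0.67 on arrays 3 to 6 (SD, n = 4; exact permutation p = 0.125).

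Ldhb exceeded Ldhc on 4 of 6 arrays, by 3.36, 6.53, 2.23 and 8.80 times on arrays 3 to 6, while on arrays 1 and 2 it gave 0.706 and 0.756 of the Ldhc signal. The mean difference was 1.31 ± 1.53 (SD, n = 6; exact permutation p = 0.125, adjusted 0.125), and 2.19 ± 0.90 on arrays 3 to 6 (SD, n = 4; exact permutation p = 0.125). The direction thus differed between the 2 sets of arrays. On arrays 1 and 2 the median grid neighbour of Ldhc read 1.92 and 1.58 times the lowest, and its part in this was not tested.

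Ldha did not exceed Ldhc. Its signal was 0.647, 0.711, 1.04, 1.00, 0.404 and 0.667 times that of Ldhc on arrays 1 to 6, at or under it on 5 arrays. The mean difference was −0.49 ± 0.50 (SD, n = 6; exact permutation p = 0.125, adjusted 0.125), smaller than its spread between arrays.

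Ldhb exceeded Ldha on 6 of 6 arrays. The ratio was 1.09 and 1.06 on arrays 1 and 2, where it comes to 3 and 2 steps of the last decimal, and 3.23, 6.53, 5.53 and 13.2 on arrays 3 to 6. The mean difference was 1.80 ± 1.46 (SD, n = 6; exact permutation p = 0.0312, the smallest the design allows, and 0.125 adjusted over the 4 pairs), and 2.65 ± 0.84 on arrays 3 to 6 (SD, n = 4; exact permutation p = 0.125). No pair passed after adjustment. On arrays 1 and 2 both probes lay close to the lowest intensity and Ldha did so on all arrays, so the direction there carries little weight.

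**Figure D3:**
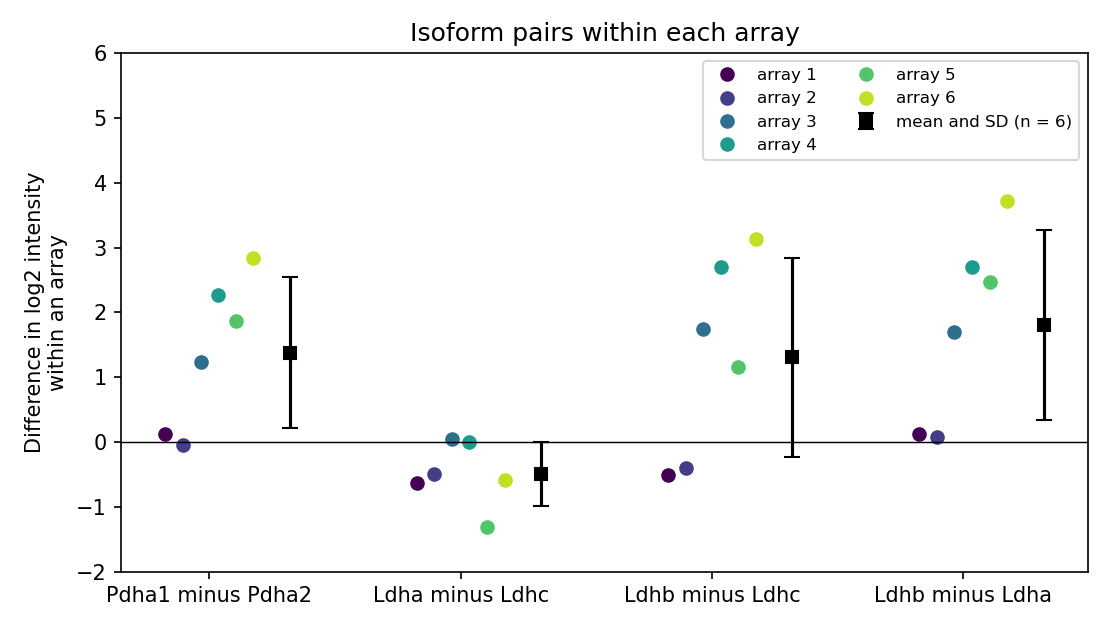
Difference in log2 intensity within an array for 4 isoform pairs, 1 point per array, with the mean and SD over 6 arrays as black squares and bars. The points of arrays 1 and 2 lie near or below 0 in every pair, and those of arrays 3 to 6 lie above 0 in every pair except Ldha minus Ldhc.

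Subtracting the lowest intensity of each array removes a common background and widens these ratios, at the price of resting on a few steps of the last decimal for dim probes. On arrays 3 to 6 the net signal of Pdha1 was 14.5, 39.0, 19.5 and 44.0 times that of Pdha2, whose net signal was 2, 1, 2 and 1 steps, so these ratios are coarse. The net signal of Ldhb was 8.25, 14.8, 13.3 and 31.5 times that of Ldha, and 9.43, 14.8, 2.66 and 14.0 times that of Ldhc. Ldhb over Ldhc was smallest on array 5, where Ldhc was highest.

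The other genes of glucose and pyruvate metabolism on the array were taken from lists of known members. Of 15 glycolysis genes, 5 had a probe, and 4 of these (Aldoa, Gapdh, Pgk1 and Eno2) were brighter than the array median in the fit over 6 arrays, against 12.2% of all probes, with 0 dimmer and a median of 1.36 on the log2 scale, beside 0.05 over all probes. Hk1, the hexokinase that starts glycolysis, was at −0.15 and not called (limma adjusted p = 0.12). None of 3 probes for glucose entry (Insr, Slc2a1, Slc2a4) was called, with a median of 0.07. Slc2a4 at 0.90 and Insr at −0.24 missed the threshold narrowly, both at limma adjusted p = 0.0518. Slc2a4 read 1.94, 4.56, 4.25 and 6.17 times the lowest on arrays 3 to 6. Of 9 respiratory chain genes, 6 had a probe and 5 were brighter than the median (Cox4i1, Cox5b, Cox6a2, Cox8a and the uncoupling protein Ucp3), against the same 12.2%, with 0 dimmer and a median of 1.90. Ucp3 took another course than the Cox probes. It read 5.93 and 6.07 times the lowest on arrays 1 and 2, and 1.72, 5.11, 2.42 and 4.67 times on arrays 3 to 6. Its spot 3O lies near 1M in the assumed grid, and the part of 1M in its signal was not tested. None of the probes used here was for the 8 other subunits and regulators of the pyruvate dehydrogenase complex that were looked for, among them the kinase Pdk4. The same held for 13 other enzymes of the Krebs cycle and malate shuttle and for 5 carriers of lactate and pyruvate. Mdh2 and Pdha1 are therefore the readings of that part of the pathway here.

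The 3 members with a measured signal were matched to the probes whose course over the 6 arrays was most like theirs. Likeness was the root mean square difference of log2 intensity after centring on the array median and on the probe's own mean, over 198 other named probes. For Ldhb the nearest were the cytochrome c oxidase subunits Cox4i1 at 0.15 and Cox5b at 0.23, where the median over all probes was 1.42. The next nearest was the fast myosin Myh4, at 0.25. Cox4i1 read 1.70, 1.53, 7.61, 15.9, 13.3 and 25.7 times the lowest on arrays 1 to 6. Like Ldhb it was higher on array 4 than on array 5 and highest on array 6. That order is not particular to them, since Pdha1, Mdh2, Cox5b and Myh4 had it too. The lowest intensity itself was 0.0009 on array 4, 0.0012 on array 5 and 0.0006 on array 6. For Pdha1 the nearest were the insulin-responsive glucose transporter Slc2a4 at 0.21 and Cox8a at 0.22, with a median of 0.94. For Mdh2 they were Pgk1, a glycolytic kinase, at 0.20 and the muscle transcription factor Mef2c at 0.31, with a median of 0.86. Among the members, Pdha1 and Mdh2 were the closest pair with measured signals, at 0.27, followed by Ldhb and Pdha1 at 0.52 and Ldhb and Mdh2 at 0.67. These profiles share the arrays and their differing range for signal, so probes of like brightness tend to follow like courses, and Slc2a4 also lies diagonally beside Pdha1 in the grid. Since the arrays fall into 2 sets, no correlation over the 6 animals was computed.

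**Figure D4:**
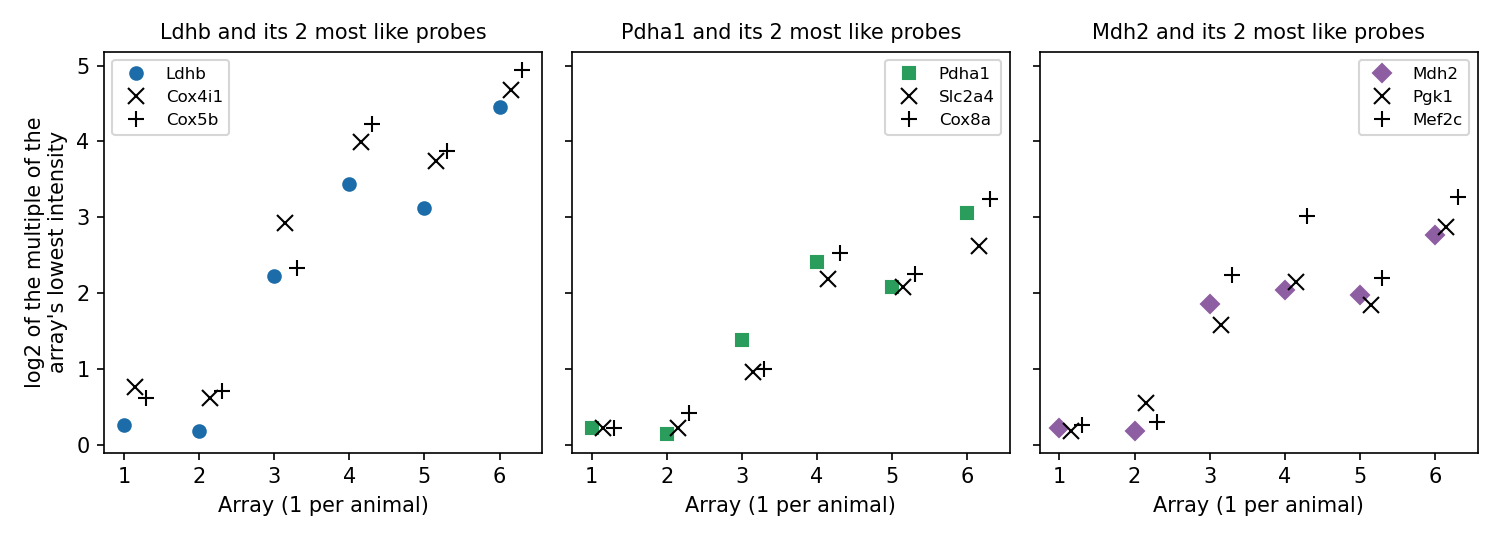
log2 of the multiple of the array's lowest intensity for Ldhb, Pdha1 and Mdh2 (coloured) and for the 2 probes whose course was most like each (black crosses and plus signs), by array. All 3 members lie under 0.3 on arrays 1 and 2 and between 1.38 and 4.46 on arrays 3 to 6.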

How the data were processed

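Total RNA from cryosections of the muscle belly was reverse transcribed with gene-specific primers and a radioactive nucleotide, 4 microg per sample and 1 label per array, per the labels' protocols. The authors' deposited table gives a relative intensity, on a linear scale, for each probe of each array; scaling and background treatment are not given in the sources used here, and no background subtraction is visible. Genes were named from the platform annotation, updated through a RefSeq table (204 of 205 named probes matched). Spots 1M and 1O were not used, leaving 221 probes, whose values summed to between 0.995 and 0.999 on each array. That the authors' scaling leaves these spots out was inferred from those sums.

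Deposited intensities were used as log2 with no further scaling. limma 3.58.1 (R 4.3.3, trended, robust prior) tested each probe against its array's median at an adjusted p of 0.05. The fit was also run on simulated arrays with normal noise, whose SDs were capped at the median over probes (0.30) and which held no split of arrays. The SDs of Ldhb (1.53), Pdha1 (0.97), Mdh2 (0.86) and Ldhc (0.42) lie above that cap, so the simulation does not cover them. Pairs were tested over 64 sign patterns. Named genes are the 6 members, Tnc, list members and, for each member at 2 times the lowest on arrays 3 to 6, the 2 probes of most like profile. Members, lists and the split of the arrays were chosen with earlier results of these data known. Alternatives were quantile normalization, cyclic loess, subtraction of the lowest intensity (floor 0.0001), a pseudocount of 0.0006, a filter on dim probes, another prior, other thresholds, spots 1M and 1O kept, arrays 3 to 6 alone and each array left out; subtraction on arrays 3 to 6 alone was added after the data were seen. Arrays 1 and 2 were the most alike (22 of 221 values identical, median ratio 1.06, largest 1.56) and were kept as separate animals. The number of arrays limits the precision, and p-values measure the spread between these samples, 1 array per animal, with animal and array not told apart.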

Additional observations from a re-analysis of the deposited data

How the results depend on the processing

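The direction of Ldhb, Pdha1, Mdh2, Ldhc and Pdha2 against the array median was the same in every alternative that held them. The filter on dim probes dropped Pdha2. Each alternative kept most or all of arrays 3 to 6, so the direction of a mean could hardly turn. On arrays 1 and 2 alone the means were −0.041 for Ldhb, −0.083 for Pdha1 and −0.062 for Mdh2, below the median. Ldhc at 0.41 and Pdha2 at −0.13 kept their direction there. Ldha, at 0.00 with all arrays, turned to −0.027 with quantile normalization, −0.026 with cyclic loess, −0.22 with the lowest intensity subtracted and −0.00029 with the pseudocount. It ran from −0.045 to 0.037 with each array left out. The count of probes brighter than the median, 27, became 71 after cyclic loess, 48 after subtraction, 71 on arrays 3 to 6 with or without subtraction, 57 with spots 1M and 1O kept and 2 with the plain prior, and ran from 0 to 59 with each array left out. That of dimmer probes, 15, became 36 with quantile normalization, 73 with cyclic loess, 37 with subtraction, 29 with the pseudocount, 64 on arrays 3 to 6 and 68 there with subtraction, 33 with 1M and 1O kept, and 0 with the plain prior or without dim probes, and ran from 0 to 49 with each array left out. The cause was not tested. In the 2 fits without array 4 or 5 limma called no probe of 221 in either direction, while 66 and 56 brighter and 29 and 32 dimmer probes had an unadjusted p under 0.05, 5 and 4 of the 6 members among them. The counts of 0 dimmer probes with the plain prior and without dim probes stand beside 34 and 3 at an unadjusted limma p under 0.05. Members at 2 times the lowest numbered 3 on arrays 3 to 6 and 0 on all 6.

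No pair changed direction. After cyclic loess 3 pairs passed by the exact permutation test adjusted over the 4 pairs (p = 0.0417 each, n = 6): Pdha1 over Pdha2 at 1.56, Ldhb over Ldhc at 1.19 and Ldhb over Ldha at 1.79. Before loess the smallest difference on an array was −0.043 for Pdha1 over Pdha2 and −0.50 for Ldhb over Ldhc. After it these were 1.30 and 0.62, so all 6 arrays took the same sign only through the normalization. The SD of Pdha1 minus Pdha2 went from 1.16 to 0.18. For Ldhb over Ldha the exact permutation p was 0.0312 before and after loess, and only its adjustment changed. These passes are therefore not separate support. With subtraction on arrays 3 to 6 alone the same 3 pairs moved to 4.72, 3.09 and 3.91. With each array left out they ran from 1.09 to 1.67, from 0.94 to 1.67 and from 1.42 to 2.14, and Ldha minus Ldhc from −0.60 to −0.33; 5 arrays allow no exact p under 0.0625, so these fits give values only. The isoform pairs were taken within an array, and no pairing across conditions was possible because the samples form 1 group. Signal over background limits Ldha and Pdha2 on all arrays, Ldhc on arrays 1 to 4 and on array 6, and the other members on arrays 1 and 2. On array 6 Ldhc lay 9 steps of the last decimal above the lowest, at 1.36 times the array median.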
